A study of Arabidopsis thaliana with 4 samples.

Results

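The beta-glucosidase genes of Arabidopsis thaliana that carry a BGLU number in their symbol were followed on 4 Affymetrix ATH1 arrays of rosette leaf RNA. Members were all probe sets that name exactly 1 gene whose symbol begins with BGLU and a digit, with no limit on signal. This gave 20 genes, 1 probe set each, of 13350 genes named by such probe sets. RefSeq lists 40 genes with BGLU symbols, and the other 20 were not analysed as members. BGLU21 and BGLU22 were among them because they share 1 probe set.

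Wild-type plants of the accession Col-0 and KO-nudx19 plants, which are labelled Col-0 too, gave 2 arrays per genotype. The knockout, called the mutant below, is without nudix hydrolase 19 (NUDX19), an enzyme that hydrolyses NADPH, and the labels name no allele or line. All plants had 1 week on plates with 3% sucrose, then 2 weeks in soil, under days of 16 h at 100 µmol/m2/s, and were harvested 3 weeks old. The arrays of each genotype are numbered 1 and 2, the order in which values are given below, and nothing says whether these were separate plants, so p-values measure only the spread between arrays, which may be technical.

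Beta-glucosidases of glycoside hydrolase family 1 cleave the bond between glucose and an aglycone. In plants the aglycone is often a hormone, a lignin precursor, a flavonoid, a coumarin or a defence compound stored as an inactive glucoside. Some members are kept in the vacuole, the cell wall or the endoplasmic reticulum, apart from their substrates, and release the active compound when the compartments meet.

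The values were deposited signals with a trimmed mean of 200 on each of the 4 arrays. Same-numbered arrays resembled each other more than same-genotype arrays, with a correlation of log2 signals over probe sets of 0.972 and 0.965 against 0.927 and 0.926. Poly(A) controls, bacterial transcripts added to the RNA, averaged (geometric mean) 116 for wild type and 98.2 for the mutant on arrays numbered 1, but 19.9 and 21.0 on arrays numbered 2. Hybridisation controls, targets added at hybridisation, parted by genotype instead, with 620 and 411 for wild type, 1054 and 1140 for the mutant. The 3′/5′ signal ratio, which rises as RNA degrades, stood for actin at 22.0 and 20.6 for wild type, 12.2 and 20.5 for the mutant, lowest on KO-nudx19 replicate 1. For GAPDH it was 1.71 and 1.99 for wild type, 1.90 and 2.98 for the mutant, and for ubiquitin 3.73 and 3.20 for wild type, 4.27 and 4.35 for the mutant. Leaf identity was checked with the 5 of 9 photosynthesis markers that had a probe set, whose summed signal was 42253 and 54555 for wild type, 58575 and 73800 for the mutant. All 5 were higher on both mutant arrays than on both wild-type arrays, as were 10.5% of all probe sets tested below. None of the 5 was called in the genotype comparison. In the comparison of the numbers 1 of the 5, PSAE-1, was called higher on the arrays numbered 2 (log2 difference 0.54, SE 0.16, adjusted p = 0.0283 in limma). Of all tested probe sets, 4.93% were called higher there. The root hair gene EXPA7 reached at most 6.28, and the guard cell regulator FAMA lay between 77.5 and 85.8. Markers of flower, seed, phloem and xylem had no probe set with 1 named gene here, and NUDX19 itself was not analysed. The part of these differences in the results below was not tested.

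A minority of the 20 members gave a signal above the dim range on all arrays of these leaves. A signal above 38.2, the 40th percentile of mean signals and here the dim limit, was seen on all 4 arrays for 7 of 20 members and on 3 arrays for BGLU47. BGLU46 passed it on 1 array, and the remaining 11 members on none. Over all probe sets except controls, 54.2% lay above the limit on all 4 arrays, against 35.0% of the members. Detection calls were not used here, so a dim signal does not show that a transcript is absent. Probe sets differ in how strongly they bind, so signals of different genes do not rank transcript levels. In whole leaves, fewer cells of a type and less RNA per cell cannot be told apart.

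**Figure D1:**
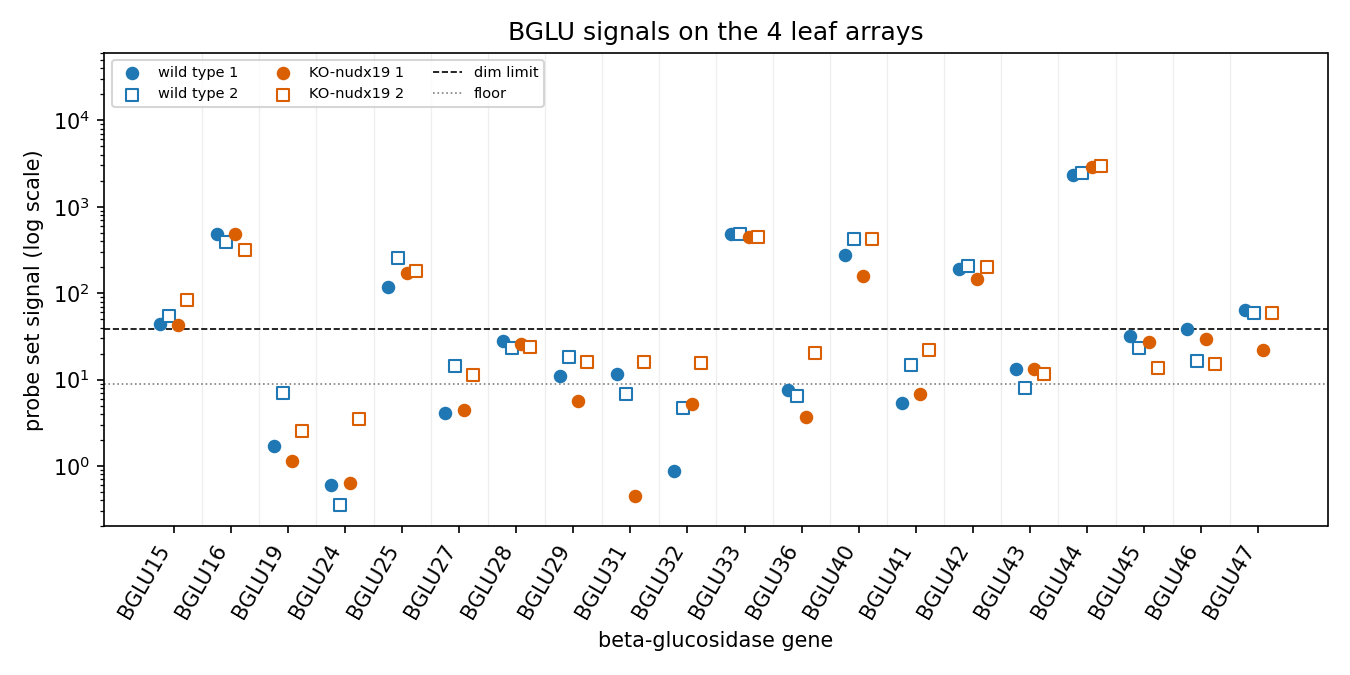
Signal of each of the 20 BGLU probe sets (log axis) on the wild-type (blue) and KO-nudx19 (orange) arrays numbered 1 (filled circles) and 2 (open squares). The dashed line is the dim limit of 38.2 and the dotted line the floor of 8.92 set before log2 was taken. 8 members have a mean above the dashed line and 12 lie below it.

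BGLU33, known as BG2, is a vacuolar enzyme that frees abscisic acid from its glucose ester. Its signals stood at 478 and 489 for wild type, 442 and 450 for the mutant. These were the most even values among the 8 members with a mean above the limit, the highest being 1.10 times the lowest. Both KO-nudx19 arrays lay below both wild-type arrays.

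BGLU42 acts in roots in the release of coumarins and in induced systemic resistance. Its signals were 190 and 207 for wild type, 145 and 202 for the mutant. KO-nudx19 replicate 1 was the lowest, and the genotypes overlapped.

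BGLU15 hydrolyses flavonol bisglycosides. Signals of 43.7 and 55.1 for wild type, 42.7 and 82.7 for the mutant placed it little above the dim limit, with both arrays numbered 2 above both numbered 1. BGLU16 had 477 and 393 for wild type, 479 and 316 for the mutant, so that both arrays numbered 2 were the lower ones.

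BGLU45, BGLU46 and BGLU47 form the group of monolignol glucosidases, of which the first 2 cleave the glucosides of lignin precursors in stems. BGLU47 had 63.7 and 59.2 for wild type, 21.8 and 58.2 for the mutant. The genotypes did not overlap, by as little as 1.02-fold between the nearest values, and 3 of the 4 arrays were nearly level. BGLU46 had 38.3 and 16.3 for wild type, 29.3 and 15.1 for the mutant. BGLU45 had 31.6 and 23.0 for wild type, 27.4 and 13.5 for the mutant. Both of these dim members were lower on the arrays numbered 2 than on those numbered 1 in each genotype.

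BGLU44 hydrolyses beta-linked mannose oligosaccharides in vitro. It gave signals of 2298 and 2457 for wild type, 2918 and 2986 for the mutant. Both KO-nudx19 arrays lay above both wild-type arrays, with 1.19-fold between the nearest values. BGLU43, its direct neighbour in the genome, stayed between 8.07 and 13.4.

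BGLU25 had 117 and 254 for wild type, 172 and 180 for the mutant. The wild-type arrays enclosed both KO-nudx19 values. BGLU19 and BGLU24 were below the floor of 8.92 on all 4 arrays, with at most 6.92 and 3.47.

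BGLU40 had signals of 279 and 429 for wild type, 159 and 420 for the mutant. Both arrays numbered 2 lay above both numbered 1, and the wild-type and KO-nudx19 values overlapped. BGLU41 lay between 5.36 and 22.2.

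The remaining dim members included BGLU28, which with BGLU30 breaks down glucosinolates when sulfur is short. It held between 23.0 and 28.0 on all arrays. BGLU29 ranged from 5.72 to 18.5 and BGLU27 from 4.07 to 14.4. BGLU31 and BGLU32, which are neighbours, ranged from 0.456 to 15.9 and from 0.887 to 15.5. BGLU36, of the myrosinase group, ranged from 3.73 to 20.1. Of the 48 values of the 12 dim members, 22 were below the floor, where differences have no order.

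Position in the genome was compared with signal as a property not used to choose the genes. In the RefSeq gene order, 11 members have another family gene as a direct neighbour, and 3 of them (BGLU15, BGLU16 and BGLU44) had a mean above the dim limit. Among the 9 members without such a neighbour, 5 did, and of all 22746 probe sets except controls 13648 did. The difference between these small groups was not tested. BGLU15, BGLU28 and BGLU29 lie in a row, and so do BGLU27 and BGLU16. Among the members of each of these runs, and of the pair BGLU43 and BGLU44, 1 had a mean above the dim limit and the others were below it on every array. In the pairs BGLU31 and BGLU32 (means 8.68 and 6.59) and BGLU45 and BGLU46 (means 23.9 and 24.8) neither member had.

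The genotype comparison asked which of these transcripts differ when NUDX19 is absent. None of the 8 members with a mean above the dim limit passed limma's test, 3 had a log2 difference above 0 and 5 below, and the estimates ran from −0.79 (BGLU47) to 0.31 (BGLU44). BGLU25, near 0, changed sign when arrays were centred on the median. Of all 13648 probe sets tested, 0% were called at an adjusted p of 0.05 (0.0147% with the replicate number as a block, again no member). Without the block, differences between the numbers count as error in the fit, and 89 probe sets had an unadjusted p under 0.05. With the block 738 had, and no member was among them in either fit. The median log2 difference was −0.14 for the 8 members and −0.00029 for all tested probe sets, of which 50% were above 0.

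BGLU44, BGLU33 and BGLU47 were the members whose genotypes did not overlap, 3 of 8, while 22.3% of all tested probe sets did not overlap. BGLU44 was the higher one in the mutant, at 2952 ± 48.1 against 2378 ± 112 for wild type (SD, n = 2 each). Its log2 difference was 0.31 (SE 0.22, 95% confidence interval −0.23 to 0.86, adjusted p = 1.00 in limma). Within number 1 it was 0.34 and within number 2 it was 0.28. BGLU33 was lower in the mutant, at 446 ± 5.13 against 483 ± 7.88, a log2 difference of −0.12 (SE 0.23, interval −0.67 to 0.44, adjusted p = 1.00 in limma), and −0.11 and −0.12 within the numbers. These differences were alike within both numbers, but the fitted intervals, whose spread is shared with other probe sets, contain 0.

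BGLU47 had the largest estimate of the 8, −0.79 (SE 0.54, interval −2.10 to 0.53, adjusted p = 1.00 in limma) and it rested on KO-nudx19 replicate 1. The difference was −1.55 within number 1, −0.025 within number 2 and −0.078 without that array. With the floor raised to the 40th percentile the estimate was −0.40, smaller in size than that of BGLU40. BGLU40 followed the same array, with −0.81 and −0.030 within the numbers and an estimate of −0.42, which turned to 0.28 without KO-nudx19 replicate 1. BGLU42 had −0.39 and −0.037 within the numbers, and 0.026 without that array.

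KO-nudx19 replicate 1 was the lowest array for 5 of the 8 members (BGLU15, BGLU33, BGLU40, BGLU42 and BGLU47), against 21.8% of all tested probe sets. For BGLU15 and BGLU33 it lay close to the next array. Genotype differences of opposite sign in the 2 numbers were found for 3 members, against 50.8% of all tested probe sets. BGLU25 had 0.56 within number 1 and −0.50 within number 2, BGLU15 had −0.035 and 0.59, and BGLU16 had 0.0057 and −0.32. With signals raised to the floor, none of the 12 dim members had genotypes that did not overlap, against 13.8% of all dim probe sets. Before that step, both mutant arrays lay above both wild-type arrays for BGLU24 and BGLU32. All 4 signals of BGLU24 and 3 of BGLU32 were below the floor.

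**Figure D2:**
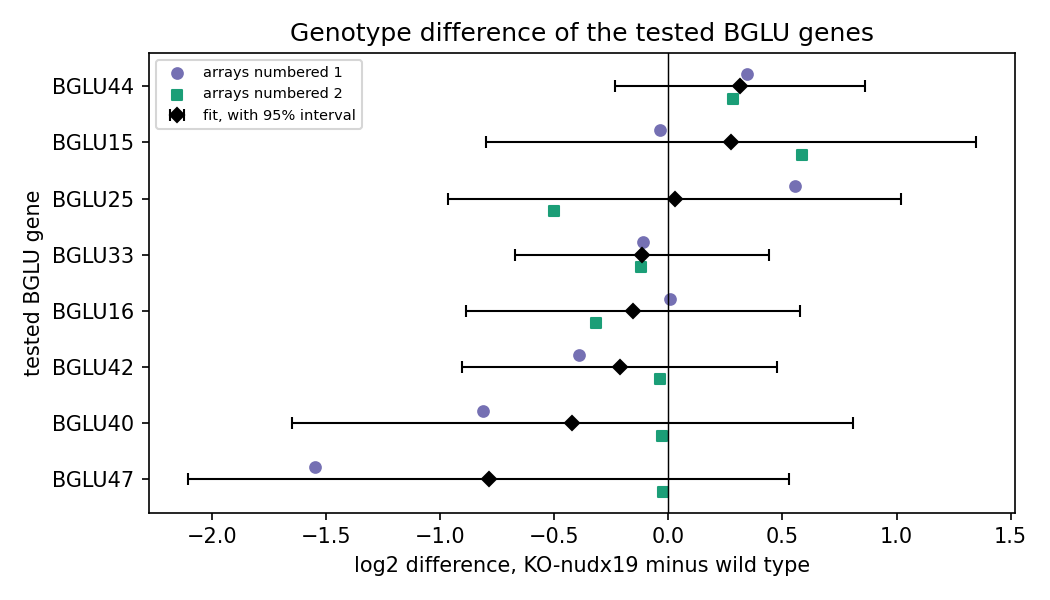
Log2 difference, KO-nudx19 minus wild type, of the 8 tested members, ordered by the estimate. Diamonds and bars are limma's estimate with its 95% confidence interval (n = 2 arrays per genotype), circles stand for number 1 and squares for number 2. Every interval contains 0, and both points of BGLU44 and of BGLU33 lie close to their estimate.

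The arrays numbered 2 and 1 were compared next, with genotype as a term, since the number parted the arrays more than genotype did. BGLU40 was the 1 member of 8 that passed, higher on the arrays numbered 2, while 11.2% of all tested probe sets were called, with 4.93% of those tested called higher and 6.32% lower on the arrays numbered 2. Its log2 difference was 1.01 (SE 0.25, interval 0.49 to 1.53, adjusted p = 0.0109 in limma), from 219 ± 85.0 on the arrays numbered 1 to 424 ± 6.18 on those numbered 2 (n = 2 each). The rise was 0.62 for wild type and 1.40 for the mutant, where the array numbered 1 was the lowest of the 4. Each of these is the value left when an array of the other genotype is dropped. Without the limit on dim probe sets the adjusted p of BGLU40 was 0.461 in limma. The count of 1 in 8 is near the share called over all probe sets.

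The 7 members besides BGLU40 did not pass. Log2 differences were above 0 for 7 of the 8 members, against 45.2% of all tested probe sets, and the median was 0.45, against −0.052 for all of these. Quantile normalization turned BGLU44, near 0, to the other side. The sign was the same in both genotypes for 7 members, against 66.5% of all tested probe sets. BGLU47 was the exception, at −0.11 for wild type and 1.42 for the mutant. Its estimate of 0.66 was 0.27 with the higher floor.

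Values did not overlap between the numbers for 5 of the 8, 4 higher and 1 lower on the arrays numbered 2, while 54.4% of all tested probe sets did not overlap, 23.6% higher and 30.8% lower. Besides BGLU40, BGLU25 had a log2 difference of 0.59 (SE 0.27, adjusted p = 0.177 in limma), made up of 1.12 for wild type and 0.061 for the mutant. BGLU15 had 0.64 (SE 0.33, adjusted p = 0.243 in limma), and BGLU42 had 0.30 (SE 0.24, adjusted p = 0.484 in limma). BGLU16 was the member that was lower on the arrays numbered 2, with −0.44 (SE 0.23, adjusted p = 0.257 in limma), and with −0.28 for wild type and −0.60 for the mutant. BGLU33 and BGLU44 overlapped between the numbers, with log2 differences of 0.028 (interval −0.45 to 0.51) and 0.065 (interval −0.34 to 0.47, and −0.028 after quantile normalization).

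**Figure D3:**
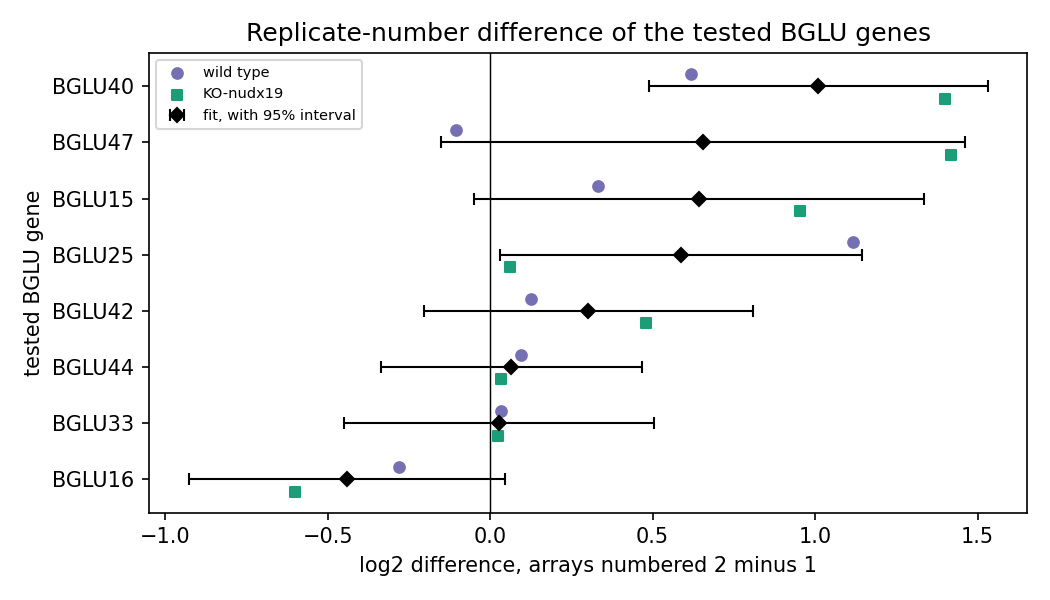
Log2 difference between the arrays numbered 2 and 1 for the 8 tested members, ordered by the estimate. Diamonds and bars are limma's estimate with its 95% confidence interval, circles the wild-type pair and squares the KO-nudx19 pair. BGLU40 stands at 1.01 with both pairs above 0, and BGLU47 has its pairs at −0.11 and 1.42.

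Of the 12 dim members, 7 did not overlap between the numbers once signals were raised to the floor, against 26.9% of all dim probe sets. On the arrays numbered 2, 3 were higher (BGLU27, BGLU29 and BGLU41) and 4 lower (BGLU28, BGLU43, BGLU45 and BGLU46). They were not tested, and BGLU27 and BGLU41 were below the floor on both arrays numbered 1. BGLU29 and BGLU43 were below it on 1 array each. The signals of BGLU19, all below the floor, were also higher on both arrays numbered 2. The mean signal of BGLU46 was 33.8 for number 1 and 15.7 for number 2, and that of BGLU45 was 29.5 and 18.3.

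Genes that share substrates or compartments with enzymes of the family, or belong to responses such as senescence and starvation, were counted in the same fits. Most listed genes were not tested. No tested gene of the 10 lists passed between the genotypes, where 0% of all tested probe sets did. Proteins of the ER body, a compartment of the endoplasmic reticulum filled with beta-glucosidase, had 4 of 10 genes tested, and 2 of these were called higher and 0 lower on the arrays numbered 2, where 4.93% and 6.32% of all tested probe sets were. The jacalin-related lectin gene JAL23 had 224 and 710 for wild type, 145 and 391 for the mutant (log2 difference 1.55, SE 0.24, adjusted p = 1.6e-04 in limma). JAL22, also a jacalin-related lectin gene, had 103 and 266 against 118 and 159 (0.90, SE 0.26, adjusted p = 0.0310 in limma). NAI2, which is needed to form ER bodies, had 138 and 166 against 126 and 182 and did not pass.

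Of the flavonol and anthocyanin genes, 5 of 15 were tested, and 3 were called higher and 0 lower on the arrays numbered 2, against 4.93% and 6.32% of all tested probe sets. They were UGT89C1, a flavonol rhamnosyltransferase, with 226 and 297 for wild type, 140 and 468 for the mutant (adjusted p = 0.0159 in limma), DFR, with 27.8 and 62.9 against 18.8 and 63.4 (adjusted p = 0.0175), and the anthocyanin glucosyltransferase UGT75C1, with 20.8 and 70.6 against 20.8 and 41.4 (adjusted p = 0.0372). The median log2 difference of the 5 was 1.07, and that of all tested probe sets −0.052.

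None of 3 tested monolignol genes of 18 passed between the numbers, where 11.2% of all tested probe sets did. UGT72E2, a glucosyltransferase of the monolignols whose glucosides BGLU45 cleaves, had 41.3 and 52.4 for wild type, 27.1 and 51.1 for the mutant, a log2 difference of 0.63 between the numbers. HCT, of monolignol synthesis, and UGT72E1 lay the other way, at −0.34 and −0.36. All 3 had numbers that did not overlap, as did 54.4% of all tested probe sets. The abscisic acid list had 1 of 16 genes tested, UGT71C5, which makes the glucose ester that BGLU33 cleaves. It was level, with 204 and 206 for wild type, 229 and 205 for the mutant. Glucosinolate synthesis (2 of 21 tested), dark and sugar starvation (1 of 9) and senescence (1 of 10) had 1 called gene each, BCAT4 and WRKY53 higher and MCCA lower on the arrays numbered 2, while 11.2% of all tested probe sets were called. Glucosinolate breakdown, sulfur limitation, and coumarin synthesis with iron uptake had no tested gene.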

How the data were processed

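The authors deposited 1 linear intensity for each probe set on each array, made with GCOS (the array maker's software) per the submitters' processing notes. For its version, background correction and summarisation, nothing is given in the sources used here. Equal trimmed means (2% at each end) show a common scaling per array.

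Before log2, signals were raised to a floor of 8.92 (the 20th percentile), and overlap between groups was judged after this step. Without 64 control probe sets and those whose mean was below 38.2 (the 40th percentile), 13648 were fitted with limma 3.58.1 (R 4.3.3, trended eBayes), with Benjamini-Hochberg adjustment over all of them. Fold changes of genes with a signal below the floor can be understated. The 8 tested members had no such signal. An exact test of 2 against 2 arrays cannot go below 0.333. Replicate number was left out of the genotype fit, because the labels do not say what it marks. Over probe sets, same-numbered arrays deviated together (correlation 0.553).

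Probe sets were named from the platform annotation (13513 with 1 gene, 503 with several) and RefSeq of TAIR10.1 (13436 matched). No sequence or coordinate is given, since no table used here holds sequences and the values name no build. Members and gene lists were chosen with earlier results of these data known. All members were described, with statistics for those called or not overlapping, and up to 4 genes of a list were named, called ones first. UGT72E2, UGT72E1, HCT, UGT71C5, NAI2, EXPA7 and FAMA, as well as estimates of overlapping members, were added after their values were seen. The code was tested on simulated arrays. Alternatives were other scalings, floors, filters and eBayes settings, the replicate block, no genotype term, and leaving out each array. Figures were drawn with matplotlib 3.10.9.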

Additional observations from a re-analysis of the deposited data

Results flagged for a closer look

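The difference between the arrays numbered 2 and 1 ran in opposite directions in the genotypes for BGLU47, at −0.11 on the log2 scale in wild type and 1.42 in KO-nudx19, which lie −1.52 apart (wild type minus KO-nudx19). This difference was not tested, since each genotype has 1 array per number. KO-nudx19 replicate 1, with a signal of 21.8, was the low array.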

How the results depend on the processing

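No BGLU gene was called between the genotypes under any of the 14 alternatives run, leaving out single arrays included (0 to 0). With the replicate block 0 of 8 members passed, while 2 of all probe sets did, and the labels give no pairing. Between the numbers BGLU40 was called in 8 of 10 alternatives as the 1 called member. With quantile normalization 2 members were called, BGLU40 and BGLU25 (0.69, adjusted p = 0.0494 in limma), and without a filter on dim probe sets 0 were (0 of all 22746 in limma, of which 2705 had an unadjusted p under 0.05, 2 of them members, and the lowest adjusted p of a member was 0.410). The adjusted p of BGLU40 ran from 2.1e-04 to 0.461. The cause was not tested.

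The genotype difference of BGLU25 turned to −0.013 with median centring, and its number difference stayed above 0. With the floor at the 40th percentile, BGLU47 moved from −0.79 to −0.40 between the genotypes and from 0.66 to 0.27 between the numbers. The number difference of BGLU44 turned to −0.028 with quantile normalization. Leaving out single arrays, genotype differences ranged from −0.20 to 0.75 for BGLU15, −0.46 to 0.15 for BGLU16, −0.53 to 0.59 for BGLU25, −1.12 to 0.28 for BGLU40 and −0.45 to 0.026 for BGLU42, all of which changed sign. BGLU44 (0.26 to 0.36), BGLU33 (−0.13 to −0.099) and BGLU47 (−1.49 to −0.078) did not. The number difference of BGLU47 ranged from −0.11 to 1.42, with no test since no degrees of freedom were left. With the dim limit at the 60th percentile, 6 members in place of 7 had a signal above it on all arrays. The number of arrays limits the precision, and so does leaving the replicate number out of the genotype fit. The median half-width of its 95% interval over all tested probe sets was 0.76, and 0.52 with the replicate block.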

Other observations

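Family genes listed under other symbols, which were not members, also had signals. PYK10 (BGLU23), the main beta-glucosidase of ER bodies, had 607 and 794 for wild type, 544 and 471 for the KO-nudx19 mutant (log2 difference −0.46; SE 0.26; adjusted p = 1.00 in limma), and the genotypes did not overlap. ATA27 (BGLU20), known from the anther tapetum, had 102 and 183 for wild type, 0.398 and 160 for the mutant, so that KO-nudx19 replicate 1 lay below the other arrays, as it did for BGLU47. It was called higher on the arrays numbered 2, with a log2 difference of 2.50 (SE 0.47, adjusted p = 0.00123 in limma), a value that rests on the floor put in place of the 0.398. The probe set shared by BGLU21 and BGLU22, root enzymes that hydrolyse the coumarin glucoside scopolin, had at most 4.96 on any array.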
